A study of Homo sapiens with 4 samples.

Results

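The 43 genes described here encode the factors that start and elongate protein chains on cytosolic ribosomes, and they were measured in HEK293 cells after depletion of CNOT4. They were taken by symbol from a fixed list and were found as 43 of the 20457 gene symbols in the tables. Within the list, 10 genes are of the 5′ TOP type (EEF1A1, EEF1B2, EEF1D, EEF1G, EEF2, TPT1, EIF3E, EIF3F, EIF3H and EIF4B), and the remaining 33 were set against them. HEK293 is an established line from human embryonic kidney. Both groups received siRNA at 10 nM for 72 h: 2 libraries with a negative control siRNA, labelled WT (siControl), and 2 with siRNA against CNOT4, labelled CNOT4 knockdown (siCNOT4). Poly(A) RNA was sequenced. The study asked how mRNA levels respond to loss of CNOT4, a ubiquitin ligase linked to the CCR4-NOT deadenylase complex. The labels do not say whether replicates were separate cultures, so p-values measure the spread between these libraries, which may be technical.

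Translation starts when eIF2, carrying the initiator tRNA and GTP, joins the small ribosomal subunit together with eIF1, eIF1A, eIF3 and eIF5. The eIF4 factors load this complex onto capped mRNA and unwind its leader, eIF5B joins the subunits at the start codon, and eIF2B recharges eIF2 with GTP. Elongation is then driven by eEF1A, which delivers aminoacyl-tRNA, its exchange factor eEF1B, and the translocase eEF2. Many of these mRNAs begin with a C followed by an uninterrupted run of pyrimidines, the 5′ terminal oligopyrimidine (TOP) motif, which couples their translation to growth signalling through mTORC1 and LARP1. Ribosomal protein mRNAs are the largest TOP class.

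The TOP label can be read in the DNA at the transcription start. The set of RefSeq (GRCh38.p14) starts used here held 36 of the 43 genes and 7 of the 10 TOP-type ones. EIF2S2, EIF3A, EIF3E, EIF3G, EIF3H, EIF3L and EEF1D had no entry in that set, which does not mean that RefSeq lacks them. The lines that follow show the TOP-type genes, 10 bases before to 20 bases after the start, 5′ to 3′ on the gene's strand, with the pyrimidine run that begins at the first transcribed base in capitals.
EEF1A1: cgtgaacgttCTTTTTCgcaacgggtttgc
EEF1B2: ctcttcgggtCCTTTTTCCTCTCTTCagcg
EEF2: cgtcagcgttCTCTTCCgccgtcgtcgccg
TPT1: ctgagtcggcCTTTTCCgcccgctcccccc
EIF3F: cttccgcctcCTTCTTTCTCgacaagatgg
EIF4B: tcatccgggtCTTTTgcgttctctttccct
EEF1G: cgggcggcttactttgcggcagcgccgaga
The windows are at chr6:73521013-73521042 (minus strand), chr2:206159885-206159914 (plus, the second of 2 listed starts), chr19:3985444-3985473 (minus), chr13:45341164-45341193 (minus), chr11:7987327-7987356 (plus), chr12:53006446-53006475 (plus) and chr11:62573872-62573901 (minus). A C at the first base followed by at least 4 letters that are each C or T was present in 6 of these 7 genes. EEF1G had none at its annotated start.

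The same run was found in 5 of the 29 other factors with an entry, shown here because they share the start of the TOP-type genes without being listed as such.
EIF2S3: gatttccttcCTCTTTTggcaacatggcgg
EIF3D: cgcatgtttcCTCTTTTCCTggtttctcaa
EIF3K: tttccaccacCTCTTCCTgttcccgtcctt
EIF3M: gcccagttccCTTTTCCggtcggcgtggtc
EIF4A2: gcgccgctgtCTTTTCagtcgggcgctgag
They lie at chrX:24054946-24054975 (plus strand), chr22:36529147-36529176 (minus), chr19:38619178-38619207 (plus), chr11:32583821-32583850 (plus) and chr3:186783567-186783596 (plus). Such a run at a listed start was present in 5.14% of all 27305 genes with an entry and in 7.35% of the 10045 that were also compared below. Read from the same position on the opposite strand the share of all genes was 2.45%, with 0 of the 36 factors. Anywhere from 10 bases before to 20 bases after the start, a C followed by at least 4 pyrimidines was far commoner, in 24 of 36 factors and 43.4% of all genes, and 41.4% on the opposite strand.

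Levels are in TPM (a length-normalized abundance in transcripts per 1000000, summing to that number in each library). Steps in the lowest values gave an approximate depth of 26.5 to 28.9 M reads per library (M, 1000000), if gene lengths resemble those of GENCODE 29; the tables themselves hold no read totals. CNOT4, the targeted gene, was at 6.43 and 4.73 TPM in siControl, and 3.38 and 3.81 TPM in siCNOT4. Both siCNOT4 values were the lower ones, but the change (fold change -0.51, SE 0.26, limma adjusted p 0.184) did not pass the test described below. It passed after median centring (adjusted p 0.0414), TMM scaling (0.0359), quantile normalization (0.0252) and removal of length and GC trends (0.0133), with fold changes from -1.16 to -0.95. Without siControl replicate 1 the adjusted p was 0.0871, and leaving out the other control instead gave 0.00975. Of the HEK293 markers, VIM, KRT8, KRT18 and NEFL were at 193 to 917 TPM, while PAX2 and NEFM were at 0.412 to 1.91 TPM. Markers of leukocytes, hepatocytes, erythroid and endothelial cells (PTPRC, CD3E, ALB, HBB, PECAM1) were at 0 to 0.255 TPM. The fibroblast marker COL1A1 rose, from low levels. It was at 1.39 and 0.906 TPM in siControl, and 5.09 and 6.60 TPM in siCNOT4 (fold change 1.67, SE 0.25, limma adjusted p 0.0248), a call that was lost after median centring. VIM fell (fold change -1.09, SE 0.19, limma adjusted p 0.0288). The part of COL1A1 and VIM in the results was not tested. Fewer cells of a kind and less RNA per cell cannot be told apart in such bulk samples. Across the 14208 features with a mean of at least 1 TPM, siCNOT4 minus siControl on the log2(TPM + 1) scale had a median of 0.50. Fold changes below are on that scale, and those of the called factors are also given relative to this median. The siControl replicates stood apart from each other, with a median difference (replicate 2 minus 1) of -0.38.

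Of the 43 factors, 6 passed the limma test (adjusted p under 0.05 over all features tested). EIF5 and EIF2S1 rose in siCNOT4, and EEF1B2, EIF4A1, EIF2S2 and EEF1G fell. The 6 are 14.0% of the factors, close to the 12.6% of all features called. By direction, 4.65% of the factors rose, against 11.3% of all features, and 9.30% fell, against 1.3%. At an unadjusted p under 0.05 there were 18 of 43, against 42.0% of all features. Factors are abundant mRNAs: among the 3500 features with a mean of at least 50 TPM, 9.34% rose and 4.03% fell. The median fold change of the 43 was 0.11, or -0.39 relative to all features, and 32 of 43 lay below the median of all features. Fold changes above 0 were found in 23 of 43, against 81.2% of all features. Of the 3500 abundant features, 2427 lay below the median of all features, and 2427 had fold changes above 0. Their median relative to all features was -0.24. All 43 passed the filter on low values. Centring each library on its median left 0 of the 43 called, against 3.82% of all features. The calls also changed widely when 1 library was left out, as given below beside the calls over all features. The plot of fold changes shows the factors as a continuous range from -0.74 to 1.05.

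**Figure D1:**
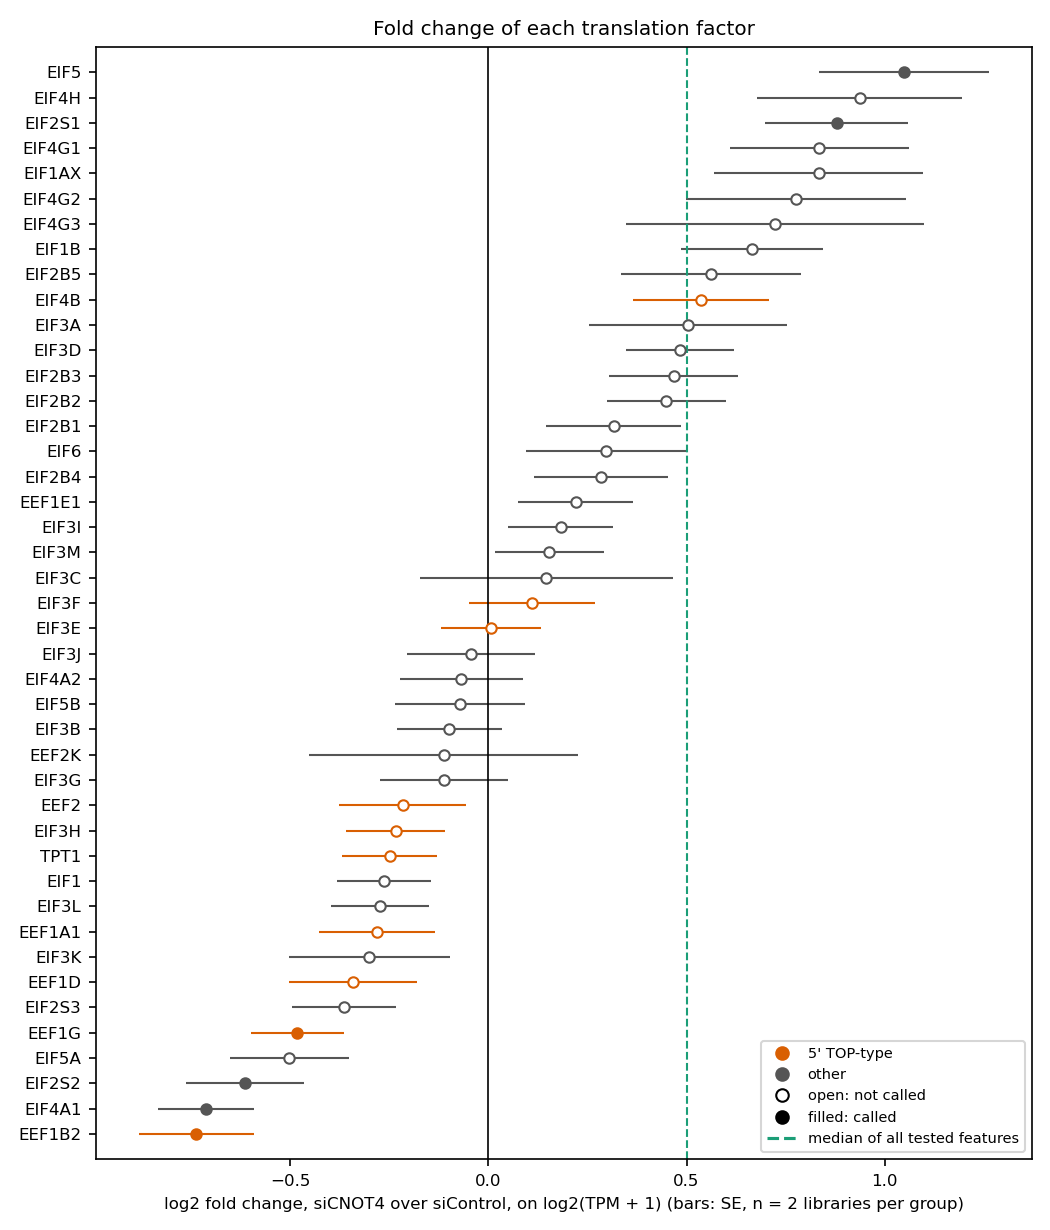
Log2 fold change of siCNOT4 over siControl on the log2(TPM + 1) scale (x axis) for each of the 43 factors (rows), with bars for the limma SE (2 libraries per group). The dashed line marks the median of all tested features, 0.50; 5′ TOP-type factors are orange, and the 6 called factors are filled. Most factors, 32 of 43, lie left of that line, as would 2427 of the 3500 features with a mean of at least 50 TPM (not drawn).

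Among the elongation factors, EEF1B2 and EEF1G, which with EEF1D form the exchange factor eEF1B, fell in siCNOT4. EEF1B2 (chromosome 2, 206159585 to 206162928, GRCh38) encodes the subunit that exchanges GDP for GTP on eEF1A. It was at 868 and 1041 TPM in siControl, and 600.4 and 541 TPM in siCNOT4. Both siCNOT4 libraries lay below both siControl libraries, and the gap exceeded the differences between replicates. The means were 955 ± 122 against 571 ± 41.9 TPM (SD, n = 2 each), and the log2 fold change was -0.74 (SE 0.15, limma adjusted p 0.0368), or -1.24 relative to all features. EEF1G (chromosome 11, 62559601 to 62574086), a scaffold subunit of the same complex, was at 2186 and 2332 TPM in siControl, and 1672 and 1563 TPM in siCNOT4. Here too the groups did not overlap, and the fold change was -0.48 (SE 0.12, limma adjusted p 0.0492), or -0.98 relative to all features. EEF1D, the second subunit with exchange activity, was at 224 and 278 TPM in siControl, and 195 and 198 TPM in siCNOT4. Its siCNOT4 values were also the lower ones, but the fold change of -0.34 (SE 0.16, limma adjusted p 0.153) did not pass the test.

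EEF1A1, the GTPase that brings aminoacyl-tRNA to the ribosome, was at 1881 and 1638 TPM in siControl, and 1582 and 1319.8 TPM in siCNOT4. The groups did not overlap, yet siCNOT4 replicate 1 came close to siControl replicate 2, and the fold change was -0.28 (SE 0.15, limma adjusted p 0.185). EEF1A1, EEF1B2 and TPT1 have processed pseudogenes, whose reads the counting may have shared with them. EEF2, the translocase, was at 2616 and 1977 TPM in siControl, and 1986 and 1928 TPM in siCNOT4. Its groups overlapped, siControl replicate 1 being the highest library by far, and the fold change was -0.22 (SE 0.16, limma adjusted p 0.319). EEF2K, the kinase that inactivates eEF2, was scarce, at 16.6 and 9.28 TPM in siControl, and 11.7 and 11.2 TPM in siCNOT4, with siControl replicates that straddled both siCNOT4 libraries. TPT1, which encodes the abundant protein TCTP and carries a well-known TOP mRNA, was the most abundant of the 43. Its levels were 3898 and 4223 TPM in siControl, and 3571 and 3263 TPM in siCNOT4, without overlap of the groups, and the fold change was -0.25 (SE 0.12, limma adjusted p 0.159). EIF5A, the hypusine-bearing factor that helps ribosomes through difficult peptide bonds, was at 669 and 824 TPM in siControl, and 504 and 544 TPM in siCNOT4. Both siCNOT4 values lay below both siControl values, with a fold change of -0.50 (SE 0.15, limma adjusted p 0.0667). Its near-identical copy EIF5AL1 was listed at 6.94 and 7.35 TPM in siControl, and 3.51 and 3.70 TPM in siCNOT4. EEF1E1, in spite of its symbol a subunit of the multi-tRNA synthetase complex, was at 131 and 136 TPM in siControl, and 154 and 158 TPM in siCNOT4, the only gene of this group with both siCNOT4 values above both siControl values (fold change 0.22, SE 0.15, limma adjusted p 0.272). A readthrough symbol that includes it, EEF1E1-MUTED, was listed at 78.5 and 65.7 TPM in siControl, and 103 and 97.7 TPM in siCNOT4, so its reads are uncertain. In all, 9 of these 9 genes lay below the median of all features.

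The plot of levels shows the 43 factors by role. TPT1, EEF2, EIF4A1 and EEF1G had the highest mean TPM over the 4 libraries, and EIF3C and EEF2K the lowest.

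**Figure D2:**
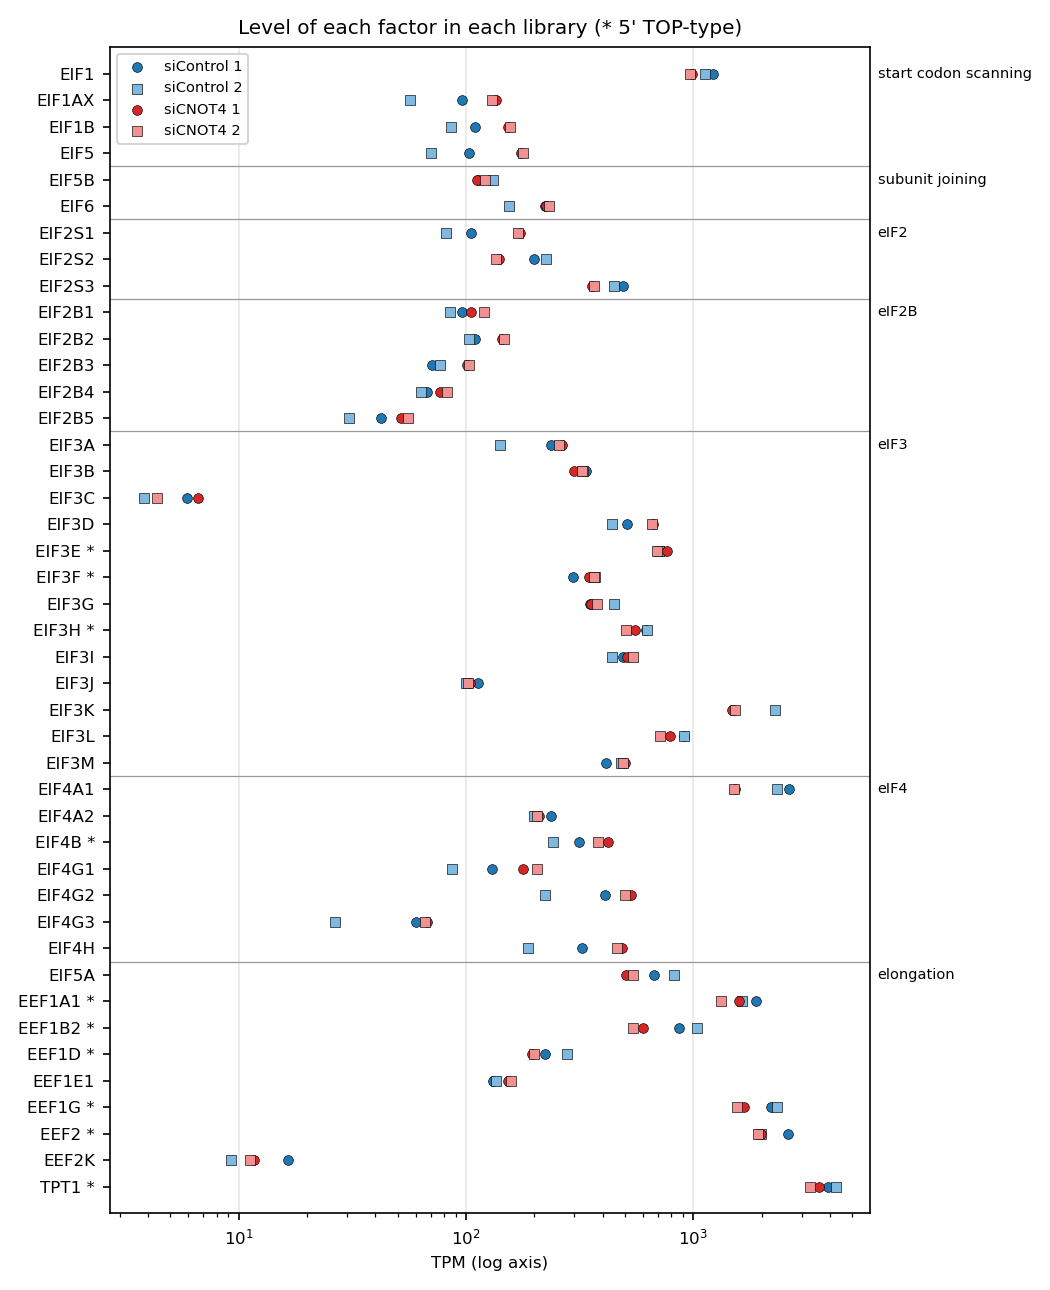
TPM (x axis, log scale) of each factor (rows, grouped by role) in the 2 siControl libraries (blue) and the 2 siCNOT4 libraries (red), with circles for replicate 1, squares for replicate 2 and asterisks for the 5′ TOP-type genes. EIF4A1, EEF1B2 and EEF1G have both red points left of both blue ones, while EIF5 and EIF2S1 have them to the right.

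The subunits of eIF2 moved apart. EIF2S1 (chromosome 14, 67359997 to 67386516), the alpha subunit whose phosphorylation lowers initiation under stress, was at 105 and 81.5 TPM in siControl, and 172 and 169.9 TPM in siCNOT4. Both siCNOT4 libraries were above both siControl libraries, with means of 93.4 ± 16.7 against 171 ± 1.83 TPM (SD, n = 2 each). The fold change was 0.88 (SE 0.18, limma adjusted p 0.0396), or 0.38 relative to all features. EIF2S2 (chromosome 20, 34088298 to 34112332), the beta subunit that contacts eIF5 and eIF2B, was at 198 and 224 TPM in siControl, and 139.6 and 135 TPM in siCNOT4. Here both siCNOT4 libraries were the lower ones, and the fold change was -0.61 (SE 0.15, limma adjusted p 0.0488), or -1.11 relative to all features. EIF2S3, the gamma subunit that binds GTP and the initiator tRNA, was at 489 and 446 TPM in siControl, and 359.7 and 366 TPM in siCNOT4. It lay on the same side as EIF2S2 without overlap, but its fold change of -0.36 (SE 0.13, limma adjusted p 0.0918) did not pass the test. A ratio taken within a library does not depend on scaling between libraries: EIF2S1 over EIF2S2 was 0.530 and 0.364 in siControl, against 1.24 and 1.26 in siCNOT4, and EIF2S1 over EIF2S3 was 0.215 and 0.183 in siControl, against 0.480 and 0.465 in siCNOT4. The alpha subunit mRNA was thus the scarcer of the alpha and beta pair in siControl and the more abundant one in siCNOT4, and the groups did not overlap in either ratio. These ratios were chosen after the values were seen and have no test.

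The 5 subunits of eIF2B, the exchange factor of eIF2, all had both siCNOT4 libraries above both siControl libraries, as had 66.4% of all features. EIF2B2, a regulatory subunit, was at 110.0 and 103 TPM in siControl, and 144 and 148 TPM in siCNOT4. EIF2B3, part of the catalytic subcomplex, was at 70.7 and 76.9 TPM in siControl, and 101 and 104 TPM in siCNOT4. EIF2B5, the catalytic subunit itself, was at 42.1 and 30.7 TPM in siControl, and 51.6 and 55.5 TPM in siCNOT4. The remaining regulatory subunits, EIF2B1 and EIF2B4, had fold changes of 0.32 and 0.28. The 5 fold changes ran from 0.28 (EIF2B4) to 0.56 (EIF2B5), with a median of 0.45, and 0 of 5 passed the limma test; at an unadjusted p under 0.05 there were 3, where 12.6% and 42.0% of all features passed. Relative to all features the median was -0.052, close to the general shift of the tables.

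Of the factors that act in start codon selection, EIF5 rose. EIF5 (chromosome 14, 103333544 to 103345025) encodes the GTPase-activating protein of eIF2 and was at 103 and 70.1 TPM in siControl, and 175 and 179 TPM in siCNOT4. The siCNOT4 replicates lay close together and above both siControl libraries, with means of 86.7 ± 23.4 against 177 ± 2.28 TPM (SD, n = 2 each). Its fold change, 1.05 (SE 0.22, limma adjusted p 0.0397), or 0.55 relative to all features, was the highest of the 43. EIF5B, the GTPase of subunit joining, was at 113 and 132 TPM in siControl, and 112 and 121 TPM in siCNOT4, and its groups overlapped. EIF1, which guards against non-AUG starts, was at 1219 and 1127 TPM in siControl, and 982 and 969.8 TPM in siCNOT4, whereas its close paralog EIF1B was at 110.0 and 85.8 TPM in siControl, and 154 and 156 TPM in siCNOT4. As deposited, the groups did not overlap for either gene, in opposite directions. The fold changes were -0.26 (SE 0.12, limma adjusted p 0.141) for EIF1 and 0.67 (SE 0.18, limma adjusted p 0.0577) for EIF1B. Both siCNOT4 libraries lay above both siControl libraries in 66.4% of all features and below in 10.6%. Relative to all features the fold changes were -0.76 for EIF1 and 0.17 for EIF1B. After median centring EIF1 stayed lower, and the groups overlapped for EIF1B. EIF1 over EIF1B within a library was 11.1 and 13.1 in siControl, against 6.39 and 6.23 in siCNOT4. EIF1AX, which opens the small subunit for scanning together with EIF1, was at 96.5 and 57.0 TPM in siControl, and 136 and 130.3 TPM in siCNOT4 (fold change 0.83, SE 0.26, limma adjusted p 0.0733). EIF6, which keeps free large subunits from joining, was at 223 and 155 TPM in siControl, and 225 and 231 TPM in siCNOT4, where siControl replicate 1 was almost level with siCNOT4.

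In the eIF4 group EIF4A1 fell. EIF4A1 (chromosome 17, 7572706 to 7579005) encodes the main RNA helicase that unwinds mRNA leaders and was at 2636 and 2345 TPM in siControl, and 1525 and 1509 TPM in siCNOT4. Both siCNOT4 libraries were far below both siControl libraries, with means of 2491 ± 206 against 1517 ± 11.5 TPM (SD, n = 2 each). The fold change was -0.71 (SE 0.12, limma adjusted p 0.0288), or -1.21 relative to all features. The readthrough symbol SENP3-EIF4A1 was listed at 1239 and 1077 TPM in siControl, and 733 and 726 TPM in siCNOT4, and the ratio of the 2 symbols ranged over 4.74% among the libraries, so the reads of EIF4A1 cannot be divided between them. EIF4A2, the paralog of this helicase, was at 238 and 199 TPM in siControl, and 210.2 and 204 TPM in siCNOT4 (fold change -0.068, SE 0.15, limma adjusted p 0.746), with overlapping groups. EIF4A1 over EIF4A2 was 11.1 and 11.8 in siControl, against 7.26 and 7.38 in siCNOT4.

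For 5 cofactors and scaffolds of the helicase both siCNOT4 values were above both siControl values, as in 66.4% of all features. Relative to all features their fold changes ran from 0.035 (EIF4B) to 0.44 (EIF4H), and after median centring the groups overlapped for EIF4B and EIF4G3. EIF4H, which stimulates eIF4A, was at 325 and 188 TPM in siControl, and 484 and 464 TPM in siCNOT4 (fold change 0.94, SE 0.26, limma adjusted p 0.0596). EIF4B, a second stimulator and a gene of the TOP type, was at 314 and 242 TPM in siControl, and 422 and 379 TPM in siCNOT4 (fold change 0.54, SE 0.17, limma adjusted p 0.0747). EIF4G1, the scaffold that joins cap-binding protein, helicase and eIF3, was at 131 and 87.1 TPM in siControl, and 178 and 204 TPM in siCNOT4 (fold change 0.83, SE 0.23, limma adjusted p 0.0581). In these 3 genes the groups did not overlap, but siControl replicate 2 was well below siControl replicate 1 each time, and none passed the test. EIF4G2, an eIF4G relative that lacks the site for eIF4E, was at 408 and 222 TPM in siControl, and 531 and 502 TPM in siCNOT4. EIF4G3, the second full-length scaffold, was at 60.5 and 26.5 TPM in siControl, and 67.4 and 66.3 TPM in siCNOT4. In both genes the distance between the siControl replicates exceeded that from siControl replicate 1 to siCNOT4, and the fold changes were 0.78 (SE 0.28, limma adjusted p 0.0918) and 0.72 (SE 0.38, limma adjusted p 0.183). EIF4A1 over EIF4H within a library was 8.10 and 12.5 in siControl, against 3.15 and 3.25 in siCNOT4. The plot of within-library ratios shows these pairs together.

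**Figure D3:**
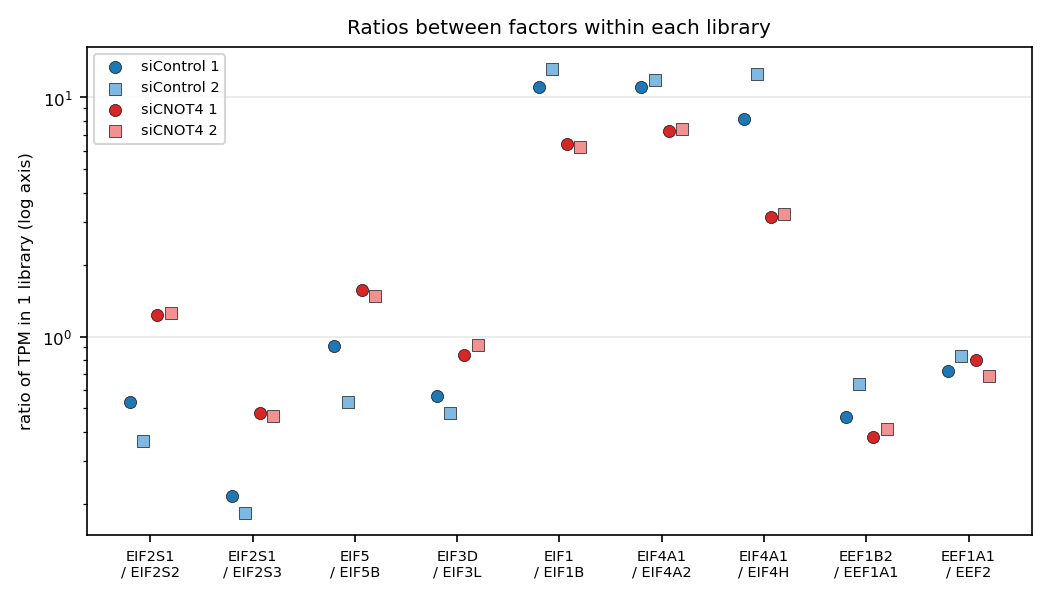
Ratio of the TPM of 2 factors within each library (y axis, log scale) for 9 pairs (x axis), with blue for siControl, red for siCNOT4, circles for replicate 1 and squares for replicate 2. EIF2S1 over EIF2S2 lies between 0.364 and 0.530 in siControl and at 1.24 and 1.26 in siCNOT4, whereas EEF1A1 over EEF2 overlaps between the groups.

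None of the 13 subunits of eIF3, the large scaffold of the initiation complex, passed the limma test, and 1 had an unadjusted p under 0.05 (EIF3D), where 12.6% of all features were called and 42.0% had such a p. Their fold changes ran from -0.30 (EIF3K) to 0.50 (EIF3A) with a median of 0.0076. Relative to all features, 12 of 13 were below 0. EIF3D, the subunit able to bind the cap of some mRNAs, was at 509 and 438 TPM in siControl, and 662 and 659 TPM in siCNOT4. EIF3L, a peripheral subunit, was at 907 and 912 TPM in siControl, and 792 and 714 TPM in siCNOT4. As deposited, the groups did not overlap for either. EIF3D was higher in siCNOT4 (fold change 0.48, SE 0.14, limma adjusted p 0.0606), and EIF3L was lower (fold change -0.27, SE 0.12, limma adjusted p 0.141). Both siCNOT4 libraries lay above both siControl libraries in 66.4% of all features and below in 10.6%. Relative to all features the fold changes were -0.017 for EIF3D and -0.77 for EIF3L. After median centring the groups overlapped for EIF3D, and EIF3L stayed lower. EIF3D over EIF3L was 0.562 and 0.480 in siControl, against 0.837 and 0.922 in siCNOT4. EIF3A, the largest core subunit, was at 237 and 142 TPM in siControl, and 264 and 257 TPM in siCNOT4, where siControl replicate 2 alone was low. EIF3K, the smallest peripheral subunit here, was at 1512 and 2282 TPM in siControl, and 1486 and 1530.3 TPM in siCNOT4, where siControl replicate 2 alone was high.

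The 3 eIF3 subunits of the TOP type had fold changes near 0 or below it. EIF3E was at 739 and 707 TPM in siControl, and 764 and 691 TPM in siCNOT4 and EIF3F at 294 and 371 TPM in siControl, and 349 and 365 TPM in siCNOT4, with overlapping groups in both. EIF3H was at 618 and 628 TPM in siControl, and 552 and 507 TPM in siCNOT4, without overlap (fold change -0.23, SE 0.13, limma adjusted p 0.194). The 95% interval of the limma fold change was -0.30 to 0.31 for EIF3E, -0.28 to 0.50 for EIF3F and -0.54 to 0.070 for EIF3H. EIF3B, which with EIF3A forms the core, was at 337 and 328 TPM in siControl, and 299 and 323 TPM in siCNOT4. EIF3G was at 351 and 446 TPM in siControl, and 354 and 378 TPM in siCNOT4 and EIF3J, the loosely bound subunit, at 113 and 100.1 TPM in siControl, and 105 and 102 TPM in siCNOT4. EIF3G and EIF3J overlapped between the groups, and the gap for EIF3B was smaller than the difference between its siCNOT4 replicates. EIF3I was at 489 and 438 TPM in siControl, and 510.1 and 541 TPM in siCNOT4 and EIF3M at 412 and 482 TPM in siControl, and 501 and 491 TPM in siCNOT4 (fold changes 0.18 and 0.15), without overlap but with gaps smaller than the differences between siControl replicates. EIF3C was listed at only 5.93 and 3.84 TPM in siControl, and 6.62 and 4.39 TPM in siCNOT4, together with its near-identical copy EIF3CL at 6.71 and 4.36 TPM in siControl, and 7.50 and 4.96 TPM in siCNOT4. The ratio of these 2 symbols varied by 0.271% among libraries, and their levels, far below those of the other subunits, are uncertain because reads that match both copies may have been left out or split.

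The 6 calls depended on the libraries and the scaling. Of the 43 factors, none was called without siCNOT4 replicate 1 or without siCNOT4 replicate 2. Far fewer of all features were called in these fits too than with all 4 libraries, so the absence of calls says little about the factors in particular. Without siControl replicate 1 there were 32, against 79.6% of all features (70.9% higher, 8.73% lower). Without siControl replicate 2 there were 28, against 57.5% (47.2% higher, 10.3% lower). With each library centred on its median, limma called 0 of 43 and 14 had an unadjusted p under 0.05, against 3.82% and 33.3% of all features. The centred background was 1.72% higher and 2.1% lower, and for features of at least 50 TPM 0.2% higher and 2.14% lower.

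After TMM scaling 0 of 43 were called, against 8.78% of all features (4.45% higher, 4.33% lower). Quantile normalization gave 3 higher and 3 lower, against 15.3% (7.11% higher, 8.23% lower). Removing each library's trend on transcript length and GC content gave 13 lower and 0 higher, against 23.9% (11.1% higher, 12.8% lower). Over all these settings and the others tried except the replicate block, the sign of each of the 6 held in 12 of 12. Only TMM scaling, quantile normalization, removal of length and GC trends and median centring could have changed a sign. Filters and the trend leave a fold change as it is. Leaving out 1 library or changing the pseudocount cannot reverse genes whose groups do not overlap, as in these 6. The adjusted p ranged from 5.6e-05 to 0.162 for EIF5, 6.9e-05 to 0.326 for EIF2S1 and 0.000249 to 0.446 for EIF2S2. It ranged from 0.000187 to 0.280 for EIF4A1, 0.000184 to 0.314 for EEF1B2 and 0.000668 to 0.540 for EEF1G.

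The TOP-type factors were then set against the rest. The median log2 fold change was -0.24 for the 10 TOP-type genes and 0.22 for the 33 others, a difference of -0.46. Relative to all features the medians were -0.74 and -0.28, and that of the 3500 features with a mean of at least 50 TPM was -0.24. Of the TOP-type genes, 2 fell (EEF1B2 and EEF1G) and 0 rose, where 1.3% of all features fell and 11.3% rose. Of the others, 2 fell (EIF2S2 and EIF4A1) and 2 rose (EIF2S1 and EIF5). Both siCNOT4 libraries lay below both siControl libraries in 6 of 10 TOP-type genes and 7 of 33 others, against 10.6% of all features. They lay above in 1 of 10 (EIF4B) and 19 of 33, against 66.4%. After centring on the library medians both siCNOT4 libraries were below in 8 of 10 and 18 of 33, against 36.9% of all features. They were above in 0 of 10 and 6 of 33, against 31.2%. Of the 3500 features with a mean of at least 50 TPM, 695 had both siCNOT4 libraries below and 1949 above. After centring these were 1844 below and 590 above. EIF4B was the TOP-type gene that went with the general shift, 0.035 from the median of all features.

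Each siCNOT4 library was also paired with each siControl library, and in all 4 pairs the median difference of the TOP-type genes minus that of the others was below 0, at -0.32, -0.44, -0.40 and -0.61. The pairs share libraries and are not independent. Between replicates of 1 group the same contrast was 0.23 (siControl 2 minus 1) and -0.15 (siCNOT4 2 minus 1), smaller in size than in any of the 4 pairs. The sign of a replicate contrast depends only on which library is subtracted. That contrast takes medians of differences per gene. Another measure was the median log2(TPM + 1) of the TOP-type genes minus that of the others within each library. By it siControl replicate 2 stood highest, at 2.59, and siCNOT4 replicate 2 lowest, at 1.58. Replicate 1 of siControl (2.01) lay nearer to both siCNOT4 libraries (replicate 1 at 1.92) than to its own replicate, so by this measure the replicate spread was not the smaller. As a share of all TPM, the 10 TOP-type genes took 1.36% and 1.34% in siControl and 1.17% and 1.08% in siCNOT4. The 33 others took 1.25% and 1.23% against 1.16% and 1.16%. Both shares were lower in siCNOT4, that of the TOP-type genes by more. The difference of medians between the sets was not kept under quantile normalization, where it was 0.010. That method gives all libraries 1 common distribution of values. EEF1A1, EEF2 and TPT1 then had fold changes of 0.0037, 0.12 and 0.33.

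**Figure D4:**
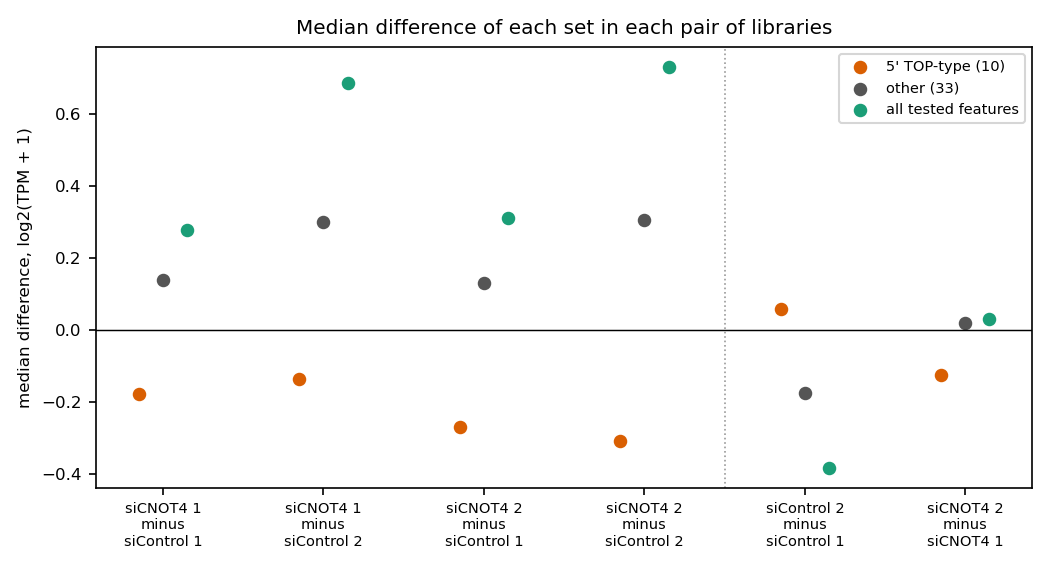
Median difference in log2(TPM + 1) (y axis) between the 2 libraries named under each column, for the 10 TOP-type genes (orange), the 33 others (grey) and all tested features (green). In the 4 columns left of the dotted line, which compare siCNOT4 with siControl, the orange point is the lowest of the 3. The 2 columns on the right compare replicates, where the sign depends only on which library is subtracted.

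Transcript length and level move with these values. Over the 43 factors, the Spearman correlation of the fold change with transcript length (GENCODE 29) was 0.314 and with the mean level -0.583. Over the 13743 tested features with a length these were 0.364 and -0.273. The difference between the siControl replicates (1 minus 2) had a correlation with length of 0.451 over the factors and 0.588 over all features. These points are genes of the same 4 libraries and have no test. The median length was 1988 nt for the TOP-type genes and 2569 nt for the others. With each library's trend on length and GC content removed, the difference between the sets was -0.45, close to that of the deposited values. The sets also differed in level, which this removal did not cover. The median was 804 TPM for the TOP-type genes against 198 TPM for the others in siControl replicate 1, and 874 against 142 TPM in siControl replicate 2. The part of level in the difference between the sets was not tested.

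The starts of the called factors EIF4A1, EIF2S1 and EIF5, and of EIF4H, EIF1 and EIF1B, had no such run and are shown for comparison, all in lower case.
EIF4A1: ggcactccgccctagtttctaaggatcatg
EIF2S1: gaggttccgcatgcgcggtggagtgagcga
EIF5: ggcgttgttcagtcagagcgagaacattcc
EIF4H: ctcgctcaccctggttcctctcggagcgga
EIF1: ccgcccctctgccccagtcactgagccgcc
EIF1B: cattttgtgcgagaagccgcagcgccgcct
They lie at chr17:7572815-7572844 (plus strand), chr14:67360318-67360347 (plus), chr14:103334227-103334256 (plus, the first of 2 listed starts), chr7:74174346-74174375 (plus), chr17:41688875-41688904 (plus) and chr3:40309697-40309726 (plus). EIF4A1 and EIF1 had negative fold changes without the run, and EIF3D (0.48) and EIF4B (0.54) positive ones with it. The median fold change was -0.22 for the 11 factors with the run and 0.30 for the 25 without. Of these 11, 6 are TOP-type genes already compared above. The other 5 had fold changes of -0.36 (EIF2S3), -0.30 (EIF3K), -0.068 (EIF4A2), 0.15 (EIF3M) and 0.48 (EIF3D). Outside the factors, with ribosomal protein genes not left out, the corresponding medians were 0.37 for 727 tested genes and 0.51 for 9282. The plot of fold change by start shows both classes of factors spread over a wide range. A match of letters is a description of an annotated start, not of the start used in these cells.

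**Figure D5:**
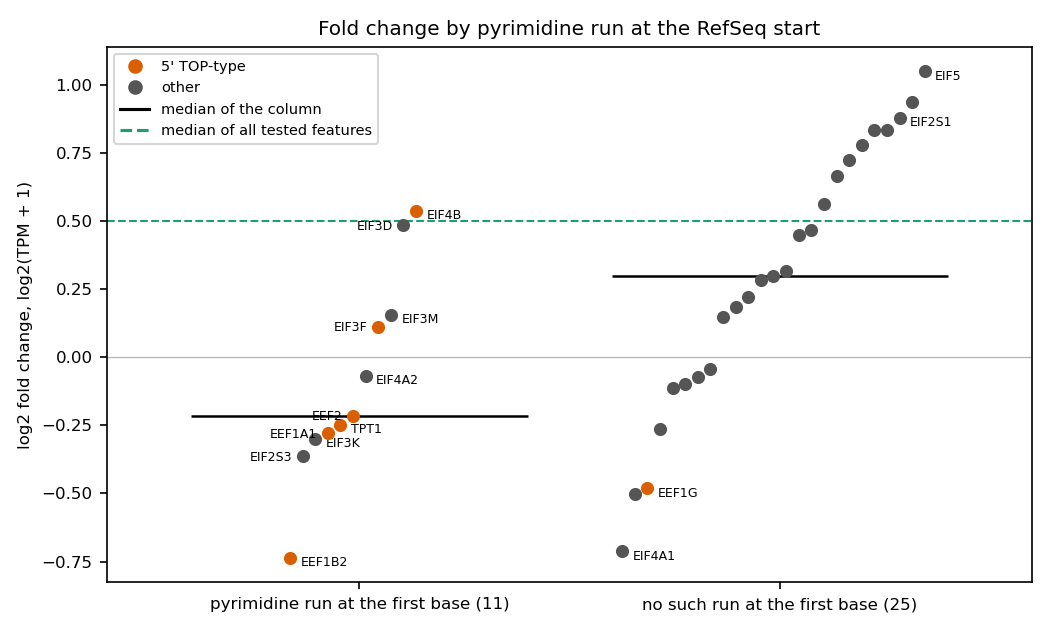
Log2 fold change of siCNOT4 over siControl (y axis, log2(TPM + 1) scale) for the 36 factors in the set of RefSeq starts used, split by a pyrimidine run beginning with C at the first base (11 and 25 genes), with orange for the TOP-type list. Black lines are the column medians, -0.22 and 0.30, and the dashed line is the median of all tested features.

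Other mRNAs known for TOP starts were read in the same way. Of 7 such mRNAs outside the ribosome's own proteins and the factors, 1 fell: RACK1 (listed as GNB2L1), the scaffold of the small subunit, at 9151 and 9082 TPM in siControl, and 5661 and 5293 TPM in siCNOT4 (fold change -0.74, SE 0.11, limma adjusted p 0.0254), where 1.3% of all features fell. Its call was lost after median centring (adjusted p 0.171), TMM scaling (0.134) and quantile normalization (0.501, fold change -0.12). HNRNPA1, a splicing regulator, was at 571 and 625 TPM in siControl, and 419.9 and 419.7 TPM in siCNOT4 (fold change -0.51, SE 0.13, limma adjusted p 0.0509). PABPC1, the poly(A)-binding protein, was at 726 and 524 TPM in siControl, and 773 and 727 TPM in siCNOT4 and NPM1, a nucleolar chaperone, at 2019 and 2119 TPM in siControl, and 2235 and 1987 TPM in siCNOT4. The list's median relative to all features was -0.97, between those of the TOP-type factors (-0.74) and the 78 tested cytosolic ribosomal proteins (-1.04). Of the ribosomal proteins 21 fell and 1 rose, where 1.3% of all features fell and 11.3% rose. After median centring limma called 0 of them. Under quantile normalization the relative medians were -0.25 for the 7 TOP mRNAs, 0.033 for the TOP-type factors and -0.20 for the ribosomal proteins. Between the siControl replicates (2 minus 1, each centred on its median over all features), these 3 lists differed by 0.63, 0.62 and 0.88 in the same order, so the level of these abundant short mRNAs was also a point on which the controls disagreed. The part of this in the group difference was not tested. In the same order, the medians relative to all features were -1.28, -0.92 and -1.40 without siControl replicate 1 and -0.57, -0.50 and -0.68 without siControl replicate 2.

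Of 9 regulators of TOP mRNAs and their kinase pathway, 1 rose and 0 fell, where 11.3% of all features rose and 1.3% fell. It was MTOR, at 36.0 and 17.3 TPM in siControl, and 77.8 and 79.0 TPM in siCNOT4 (fold change 1.61, SE 0.34, limma adjusted p 0.0423), with an adjusted p of 0.0534 after median centring. LARP1, which binds the cap and first bases of TOP mRNAs, was at 201 and 124 TPM in siControl, and 179 and 189.7 TPM in siCNOT4 (fold change 0.22, SE 0.24, limma adjusted p 0.493), with overlapping groups. CNBP, another protein that binds TOP mRNAs, was at 262 and 305 TPM in siControl, and 202 and 199 TPM in siCNOT4 (fold change -0.49, SE 0.15, limma adjusted p 0.0674). The list's median was 0.081 relative to all features.

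Of 23 accessory and paralogous initiation and elongation factors, 4 rose and 1 fell, where 11.3% of all features rose and 1.3% fell. After median centring 1 (EIF5A2) was called higher and 1 (EIF4EBP1) lower, and the calls of PDCD4 (adjusted p 0.309), EIF4E2 (0.517) and PAIP2 (0.737) were lost. The one that fell was EIF4EBP1, the repressor of eIF4E, at 409 and 501 TPM in siControl, and 32.5 and 30.9 TPM in siCNOT4 (fold change -3.80, SE 0.17, limma adjusted p 0.00534). EIF5A2, the usually scarce paralog of EIF5A, was at 3.53 and 1.62 TPM in siControl, and 11.8 and 12.1 TPM in siCNOT4 and rose (fold change 1.91, SE 0.34, limma adjusted p 0.0306), while EIF5A itself had lower values in siCNOT4. PDCD4, an inhibitor of the eIF4A helicase, was at 57.6 and 52.5 TPM in siControl, and 102 and 103 TPM in siCNOT4 and rose (fold change 0.88, SE 0.17, limma adjusted p 0.0348), alongside the fall of EIF4A1. EIF4E2 and PAIP2 also rose. EIF4E2, a cap-binding protein tied to repression, was at 149 and 183 TPM in siControl, and 304 and 304 TPM in siCNOT4, and PAIP2, which sequesters poly(A)-binding protein, at 330.1 and 282 TPM in siControl, and 502 and 484 TPM in siCNOT4. EEF1A2, the paralog of EEF1A1, was at 144 and 121 TPM in siControl, and 163 and 179 TPM in siCNOT4 (fold change 0.37, SE 0.16, limma adjusted p 0.134), and EEF1A1 over EEF1A2 was 13.1 and 13.6 in siControl, against 9.69 and 7.38 in siCNOT4.

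The enzymes that modify elongation factors, such as those that make hypusine on eIF5A and diphthamide on eEF2, gave 0 calls in 15 tested genes by limma, with 3 at an unadjusted p under 0.05, where 12.6% of all features were called and 42.0% had such a p. DHPS, which starts hypusine formation, was at 121 and 136 TPM in siControl, and 124 and 125 TPM in siCNOT4, with overlapping groups. Mitochondrial translation factors gave 0 calls in 10, with 3 at an unadjusted p under 0.05, against the same shares of all features. Their median relative to all features was 0.041, against -0.39 for the 43 cytosolic factors. TUFM, the mitochondrial counterpart of eEF1A, was at 323 and 288 TPM in siControl, and 288 and 305 TPM in siCNOT4.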

How the data were processed

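Poly(A) RNA of 4 HEK293 libraries was prepared with a stranded kit, per the labels' protocols. The authors deposited 1 table per library of TPM for 20457 gene symbols, scaled to a sum of 1000000, per the file headers and values. FastQC 0.11.2, STAR 2.5.3a, featureCounts and build hg19 are named in the submitters' processing notes, without their settings; annotation and use of strand are not given in the sources used here. TPM keeps no read totals and a rise of abundant genes lowers all others.

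Sample titles gave the groups. Values were taken as log2(TPM + 1), which understates changes of low genes, and the 14208 features with a mean of at least 1 TPM were compared, 2 libraries against 2, with limma 3.58.1 in R 4.3.3 (eBayes with a trend, prior degrees of freedom 4.22), with Benjamini-Hochberg adjustment over all features and a threshold of 0.05. The step was tested on simulated data. Transcript lengths and coordinates came from GENCODE 29 (GRCh38), with 18438 features matched by symbol, 971 by an older symbol and 1048 unmatched; start sequences came from RefSeq (GRCh38.p14). Depth was estimated from steps in values of 1504 low features.

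The members and lists were chosen with earlier results of these data known, so no list has a test. Named genes are the members, CNOT4, read-sharing partners and up to 3 called genes per list; further list genes were chosen after their values were seen. Alternatives were a pseudocount of 0.1, no filter, a mean of at least 5 TPM, TMM scaling, quantile normalization, no trend, removal of length and GC trends, a replicate block, leaving out each library and, added after the data were seen, median centring and a motif at the first base.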

Additional observations from a re-analysis of the deposited data

How the results depend on the processing

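The number of factors called, 6 (2 higher, 4 lower) of 43 with 1792 calls over all features, was 1 (0 higher, 1 lower) with a pseudocount of 0.1 (558 over all features), 1 (0 higher, 1 lower) with no filter (908) and 0 (0 higher, 0 lower) at a mean of at least 5 TPM (147). It was 0 (0 higher, 0 lower) without the trend (756), 0 (0 higher, 0 lower) after TMM scaling (1247), 0 (0 higher, 0 lower) after median centring (543), 6 (3 higher, 3 lower) under quantile normalization (2179) and 13 (0 higher, 13 lower) after removal of length and GC trends (3285). Leaving out 1 library gave 0 to 32 factors (0 to 19 higher, 0 to 13 lower) and 450 to 11311 features, the lone library being assumed to vary like the other group. The replicate block gave 14 (9 higher, 5 lower) and 3655 features; deviations of same-numbered libraries correlated at 0.171, and 2 pairs do not show that the numbers pair the samples. Where limma called 0 factors, the cause was not tested.

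The median log2 fold changes of TOP-type and other factors were -0.79 and -0.31 after TMM scaling, -0.67 and -0.22 after trend removal and -0.80 and -0.34 after median centring. Under quantile normalization the TOP-type median was 0.052 and the difference of medians 0.010. With no filter, a mean of at least 5 TPM, no trend or the replicate block, fold changes of the factors are unchanged. The difference could not move there. In each remaining setting it stayed below 0, with -0.54 to -0.34 when 1 library was left out. The medians then ranged over -0.30 to -0.18 (TOP-type) and 0.13 to 0.32 (others). A run of pyrimidines was found in 24 factors within 10 bases before to 20 after the start, in 8 with at least 7 pyrimidines and in 11 at the first base.

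Fold changes of single factors changed sign after TMM scaling for EIF6 (-0.25), EIF2B1 (-0.23), EIF2B2 (-0.096), EIF2B3 (-0.076), EIF2B4 (-0.26), EIF3A (-0.042), EIF3C (-0.31), EIF3D (-0.065), EIF3E (-0.54), EIF3F (-0.44), EIF3I (-0.37), EIF3M (-0.39), EIF4B (-0.011), EEF1E1 (-0.33); after median centring for EIF6 (-0.27), EIF2B1 (-0.25), EIF2B2 (-0.11), EIF2B3 (-0.095), EIF2B4 (-0.28), EIF2B5 (-0.0013), EIF3A (-0.058), EIF3C (-0.42), EIF3D (-0.079), EIF3E (-0.55), EIF3F (-0.45), EIF3I (-0.38), EIF3M (-0.41), EIF4B (-0.026), EEF1E1 (-0.34); after trend removal for EIF1AX (-0.084), EIF2B1 (-0.22), EIF2B2 (-0.22), EIF2B4 (-0.010), EIF3A (-0.15), EIF3C (-0.32), EIF3E (-0.53), EIF3F (-0.091), EIF3I (-0.10), EIF3M (-0.71), EEF1E1 (-0.27); and under quantile normalization for EIF2B4 (-0.048), EIF3C (-0.49), EIF3K (0.024), EEF1A1 (0.0037), EEF2 (0.12), TPT1 (0.33). None of these had passed the test. When 1 library was left out, signs changed for EIF3F (-0.056 to 0.28), EIF3J (-0.13 to 0.044), EIF4A2 (-0.20 to 0.061), EEF2K (-0.50 to 0.27), EIF5B (-0.18 to 0.037), EIF3C (-0.11 to 0.40), EIF3E (-0.065 to 0.080), EIF3G (-0.29 to 0.060). EIF3C and EEF2K had the lowest levels of the 43; the tables hold no read totals from which a counting error could be given.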
